A study of Mus musculus with 12 samples.

Results

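The genes described here are 43 targets of the tumour suppressor p53 and regulators of apoptosis, chosen as a fixed list of symbols. The list and its role groups were drawn up with earlier results of these data known. Of the 43, 41 were measured among 17097 genes on the arrays, each through its one-symbol probe set of highest mean over the 12 arrays. Trp53, which encodes p53 itself, and Bax were not analysed here. Values came from primary mouse embryonic fibroblasts (MEFs; e14.5, C57Bl/6 x 129Sv F1) at passage 4. The CBP/p300 double-knockout (dKO) cells carried homozygous conditional alleles of both coactivator genes, and both they and the wild-type cells had received Cre-expressing adenovirus at a multiplicity of infection of 100. Infected cells were kept in 3% oxygen and moved to normoxia for 24 h before treatment. The 4 groups were dKO cells with 100 µM 2,2'-dipyridyl (DP) for 3 h, dKO cells with ethanol vehicle for 3 h, wild-type cells with DP and wild-type cells with ethanol, with 3 arrays each. Lines 1, 5 and 6 were dKO and lines 3, 4 and 5 wild type, each line being given both treatments, and a shared number 5 marks no shared embryo. Nothing was stated about pooling of embryos or cultures within a line.

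p53 is a transcription factor that DNA damage and other stresses stabilise. Its target genes stop the cell cycle, repair DNA, feed back on p53 through MDM2 and PPM1D, and start apoptosis through the BCL2 family, in which BH3-only proteins free the effectors BAK and BAX from pro-survival members. CBP and p300, encoded by Crebbp and Ep300, are lysine acetyltransferases that bind the activation domain of p53, acetylate it and act as its coactivators, and CBP was named for its binding to CREB. DP chelates iron, blocks iron-dependent prolyl hydroxylases and is used as a mimic of low oxygen.

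The promoters of 34 of the 43 genes were listed in the RefSeq table (GRCm38.p6) and were searched over the 250 bases before each transcription start. The search covered the CREB-binding octamer TGACGTCA, which reads alike on both strands, and the repeat unit of the p53 response element, called the p53 decamer below, also on both strands. It also covered the CREB half-site TGACG and the core of the hypoxia response element, ACGTG or GCGTG, each on both strands. The octamer stood in 3 of the 34 (8.82%), against 1.77% of the 27025 genes in the table, and the 3 were Btg2, Ppm1d and Plk2. The p53 decamer stood in 11 of the 34 (32.4%), against 8.20% of all genes. The half-site stood in 10 of the 34 (29.4%), against 19.8% of all genes, and the hypoxia core in 18 (52.9%), against 41.5%. Shown first are the 3 promoters with the octamer, whose genes differed between the genotypes in opposite directions, and then those of Sesn1 and Gadd45a, which were higher and lower in dKO cells, and of Ccng1 and Mdm2, which did not pass the test. Capitals mark the octamer or the decamer, and each sequence runs 5′ to 3′ on the strand of its gene.
Btg2 (chr1:134079156-134079405, minus strand): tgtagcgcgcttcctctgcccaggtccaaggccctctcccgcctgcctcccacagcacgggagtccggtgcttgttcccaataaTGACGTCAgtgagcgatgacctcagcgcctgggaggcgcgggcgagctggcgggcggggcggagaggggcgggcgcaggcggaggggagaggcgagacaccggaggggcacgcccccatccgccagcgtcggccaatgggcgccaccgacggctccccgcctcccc
Ppm1d (chr11:85311004-85311253, plus strand): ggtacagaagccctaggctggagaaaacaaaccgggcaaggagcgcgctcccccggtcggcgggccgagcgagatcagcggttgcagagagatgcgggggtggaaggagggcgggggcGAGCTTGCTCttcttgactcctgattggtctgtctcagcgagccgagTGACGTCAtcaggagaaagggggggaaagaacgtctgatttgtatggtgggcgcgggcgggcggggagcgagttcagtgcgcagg
Plk2 (chr13:110394794-110395043, plus strand): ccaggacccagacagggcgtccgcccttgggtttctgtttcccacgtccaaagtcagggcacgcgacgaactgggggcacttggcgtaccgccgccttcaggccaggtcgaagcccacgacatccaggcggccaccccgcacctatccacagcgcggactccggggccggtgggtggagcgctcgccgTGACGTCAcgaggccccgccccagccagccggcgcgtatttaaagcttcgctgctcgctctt
Sesn1 (chr10:41887189-41887438, plus strand): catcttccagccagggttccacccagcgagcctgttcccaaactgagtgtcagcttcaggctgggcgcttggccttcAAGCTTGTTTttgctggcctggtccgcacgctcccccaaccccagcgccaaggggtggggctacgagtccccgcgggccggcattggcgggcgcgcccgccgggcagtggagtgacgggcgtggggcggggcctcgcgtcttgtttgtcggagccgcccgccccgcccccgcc
Gadd45a (chr6:67037408-67037657, minus strand): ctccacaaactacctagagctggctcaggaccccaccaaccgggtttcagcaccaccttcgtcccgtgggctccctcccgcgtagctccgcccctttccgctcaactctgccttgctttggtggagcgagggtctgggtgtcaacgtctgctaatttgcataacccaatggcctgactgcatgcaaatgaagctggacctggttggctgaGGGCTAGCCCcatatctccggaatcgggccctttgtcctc
Ccng1 (chr11:40755287-40755536, minus strand): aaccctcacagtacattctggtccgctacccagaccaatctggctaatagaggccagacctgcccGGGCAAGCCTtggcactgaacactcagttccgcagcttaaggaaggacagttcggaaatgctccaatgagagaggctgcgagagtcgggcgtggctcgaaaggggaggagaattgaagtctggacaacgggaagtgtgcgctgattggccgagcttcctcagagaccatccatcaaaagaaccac
Mdm2 (chr10:117710759-117711008, minus strand): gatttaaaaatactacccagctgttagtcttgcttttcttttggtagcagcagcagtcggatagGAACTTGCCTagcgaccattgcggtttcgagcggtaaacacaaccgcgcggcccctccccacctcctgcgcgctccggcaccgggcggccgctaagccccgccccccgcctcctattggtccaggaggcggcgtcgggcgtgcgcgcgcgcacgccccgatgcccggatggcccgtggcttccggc
The octamer began 166 bases before the start of Btg2, 85 bases before that of Ppm1d and 62 bases before that of Plk2. The match in Ppm1d lay downstream of a p53 decamer that began 132 bases before the start. Among genes in the table that were higher in dKO cells in both treatments, 2 of 9 held the octamer and 3 of 9 the decamer. Among those lower in both treatments the counts were 1 of 6 and 3 of 6, and among those that passed in neither treatment 0 of 15 and 3 of 15. In the same order of groups, the half-site stood in 5 of 9, 2 of 6 and 3 of 15. The hypoxia core stood in 7 of 9, 2 of 6 and 8 of 15. A match describes the letters in these windows and is no measurement of binding.

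Changes below are differences of log2 values, and the number after ± is the moderated SE of limma (n = 3 arrays in each group). Adjusted p-values come from limma by the Benjamini-Hochberg method over all 17097 genes. A gene passed the test at an adjusted p under 0.05. Values of single arrays are given for dKO lines 1, 5 and 6 and wild-type lines 3, 4 and 5, in that order. Levels of different genes are not compared, since each comes from its own probes.

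The medians of the 12 arrays ran from 3.87 to 3.98 log2. On the same scale, 17 control probe sets with no mouse target had 95th percentiles of 3.28 to 3.54, called the blank level below. Precision is limited by how few arrays there were. Crebbp was lower in dKO cells, at 7.02, 7.68 and 7.54 in dKO and 8.35, 8.37 and 8.07 in wild-type ethanol cultures (-0.85 ± 0.16, adjusted p = 0.000992 from limma). Whether its probes lie inside the deleted part was not known, so this is no check of the deletion. Ep300 was not analysed here. Xist lay at 3.94 to 5.32 on dKO and 10.28 to 10.75 on wild-type arrays, and the Y-linked gene Eif2s3y at 7.08 to 8.93 on dKO and 2.49 to 3.29 on wild-type arrays, so genotype and the sex of the lines cannot be told apart. All 11 measured fibroblast markers were lower in dKO cells in both treatments, with an array mean over the list of 8.14 to 8.67 in dKO and 10.07 to 10.30 in wild-type cultures, and the probe set of Col1a2 lay near the blank controls in dKO cells. Of 7 macrophage markers 4 were lower and 1 higher in dKO ethanol cultures, with Ptprc near the blanks in all 4 groups, and of 6 endothelial markers Pecam1, Cdh5, Tek, Tie1 and Emcn lay near the blanks in all 4 groups. In epithelium 1 of 6 markers was higher and 3 were lower in dKO ethanol cultures, and in skeletal muscle and neural cells 1 of 5 each was lower, with Cdh1, Myod1, Sox2 and Gfap near the blanks in all groups. Neither of the erythroid markers passed. As a measure of RNA quality, the 3′ minus 5′ signal of beta-actin ran from 0.48 to 0.60 log2 on dKO DP, from 0.40 to 0.45 on dKO ethanol, from 0.28 to 0.38 on wild-type DP and from 0.23 to 0.25 on wild-type ethanol arrays, and it is larger in more degraded RNA. For Gapdh the same measure gave another order, from 0.10 to 0.19 on dKO DP, from 0.19 to 0.21 on dKO ethanol, from 0.04 to 0.17 on wild-type DP and from -0.03 to 0.15 on wild-type ethanol arrays. The part of sex, marker genes and RNA quality in the results below was not tested, and in bulk RNA fewer cells of a type and less RNA per cell cannot be told apart.

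The ethanol arrays of dKO line 1 and wild-type line 5 stood apart from their groups, and their deviations from the group means correlated over 8917 genes (r = 0.844, given as a description, since genes are not replicates). Among the genes described here, 8 lay at least 0.5 log2 below the mean of the other lines on both of these arrays and none lay at least 0.5 above it on both. The 8 were Mdm2, Mdm4, Pmaip1, Bcl2, Trp53inp1, Polk, Rrm2b and Eda2r. At any size, 17 of the 41 lay lower on both arrays, 14 higher on both and 10 in opposite directions. The matching shares of all genes are not given here, so these counts cannot be read as particular to the 41. Trp53inp1 lay at 8.98, 10.55 and 10.05 in dKO and at 9.78, 9.54 and 8.66 in wild-type ethanol cultures. Polk, which encodes a translesion DNA polymerase, lay at 8.24, 9.13 and 8.85 in dKO and 8.69, 8.73 and 7.80 in wild-type ethanol cultures. In each case the lowest value of a group came from one of these arrays, which follows from how the 8 were picked. Counts are therefore also given without both arrays. As both are ethanol arrays, differences between genotypes under DP keep their values without them. Only the spread, which is pooled over all arrays, changes for those differences. The share of all genes that passed without them is not given here, so a changed count cannot be read as particular to these genes.

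**Figure D1:**
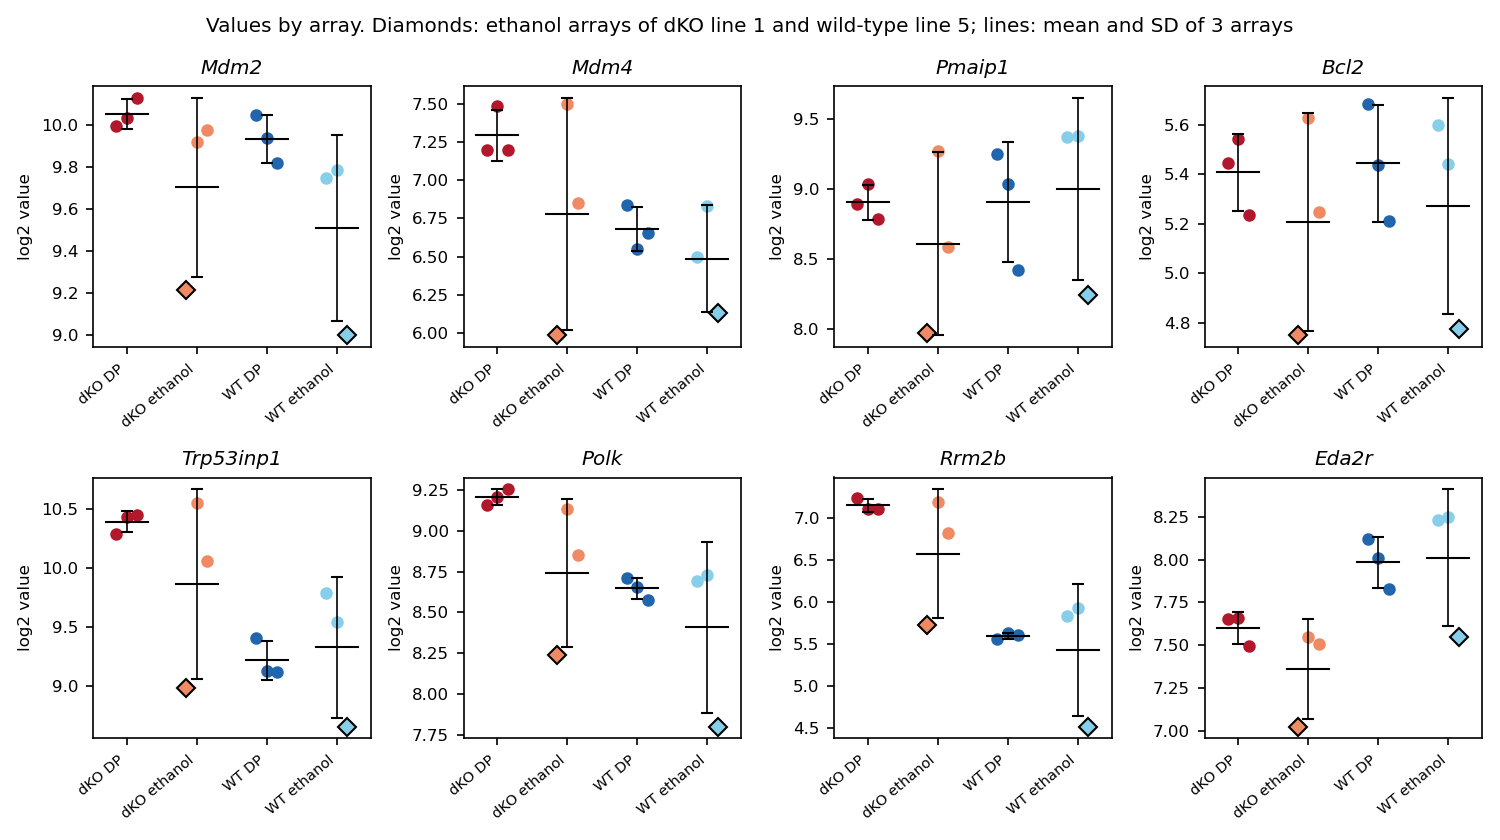
Log2 values (y axis) of 8 genes on each array by group (x axis), with diamonds for the ethanol arrays of dKO line 1 and wild-type line 5, circles for the other arrays, and lines for the mean and SD of 3 arrays. The 8 were chosen for lying at least 0.5 log2 below the mean of the other lines on both diamond arrays. Low diamonds therefore follow from the choice, as for Rrm2b at 5.72 in dKO and 4.51 in wild-type ethanol cultures.

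The first comparison was between dKO and wild-type cells in ethanol, which asks how these genes stand without CBP and p300 before any iron chelation. In dKO cells 15 of the 41 genes were higher and 7 lower, and 19 did not pass. Over all genes 33.6% passed, with 19.5% higher and 14.1% lower. The median change of the 41 was 0.19, beside -0.01 over all genes. DNA repair genes, the kinase gene Plk3 and the p53 phosphatase gene Ppm1d were among those higher, and Gadd45a, Plk2 and the nuclease gene Aen among those lower. Without the deviating pair of arrays 16 were higher and 9 lower. After cyclic loess 13 were higher and 10 lower, and the calls over all genes were 46.2% higher in place of 58.1%.

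Under DP, 16 of the 41 genes were higher in dKO cells and 6 lower, with a median change of 0.13 beside -0.01 over all genes. Over all genes 35.4% passed, with 18.5% higher and 16.9% lower. Without the deviating arrays, which are ethanol arrays and enter only the pooled spread here, the counts were 19 and 9. A fit of only the DP arrays gave the same counts. After cyclic loess the counts were 14 and 10. The share of all genes that passed in these settings is not given here, so such shifts cannot be read as particular to the 41. The genotype groups did not overlap for 14 higher and 7 lower members in ethanol (21.2% and 18.8% of all genes) and for 19 and 9 under DP (28.4% and 25.3% of all genes). In all, 20 members passed in both treatments, 14 higher and 6 lower, which is 90.9% of the calls of either treatment, on separate arrays of the same 6 lines. Over all genes, those called in both treatments made up 82.2% of the ethanol calls and 77.9% of the DP calls. Bik and Eda2r passed in ethanol alone and Bid and Trp53inp1 under DP alone. For none of these 4 did the test of the difference between the DP responses pass.

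**Figure D2:**
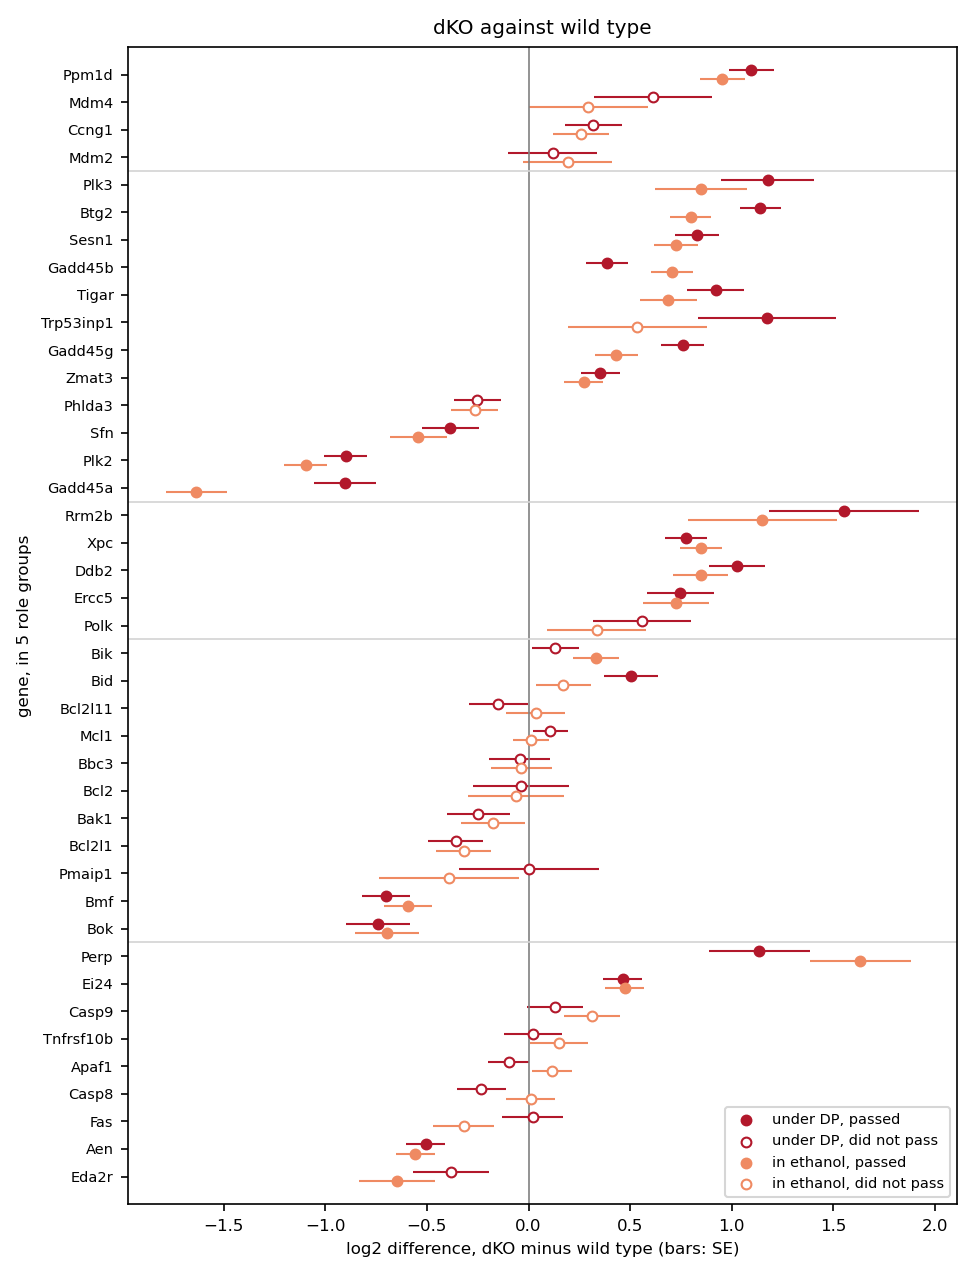
Log2 difference between dKO and wild-type cells (x axis) for the 41 genes (y axis, in 5 role groups separated by lines), under DP and in ethanol; bars are SE and filled points passed the test. Rrm2b lies to the right in both treatments, at 1.55 under DP and 1.15 in ethanol, and Gadd45a to the left, at -0.90 and -1.63.

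Among the feedback regulators of p53, Ppm1d was the only one of 4 measured genes to pass between genotypes. That is 25%, beside 33.6% of all genes in ethanol and 35.4% under DP. Ppm1d encodes WIP1, a phosphatase that turns off p53 and its kinases. It lay at 7.43, 7.72 and 7.88 in dKO and 6.68, 6.83 and 6.66 in wild-type ethanol cultures, and at 7.52, 7.56 and 7.54 in dKO and 6.45, 6.47 and 6.41 in wild-type DP cultures. All 6 dKO values lay above all 6 wild-type values, with differences of 0.95 ± 0.11 in ethanol (adjusted p = 2.26e-05 from limma) and 1.10 ± 0.11 under DP. Mdm2, whose product is the ubiquitin ligase that destroys p53, lay at 9.22, 9.92 and 9.98 in dKO and 9.75, 9.79 and 9.00 in wild-type ethanol cultures. Its groups overlapped, with the lowest value of each on a deviating array. Mdm4 encodes the partner of MDM2 that masks the activation domain of p53. It lay at 7.20, 7.49 and 7.20 in dKO and 6.84, 6.55 and 6.65 in wild-type DP cultures, which did not overlap, but its difference of 0.61 ± 0.29 did not pass (adjusted p = 0.128 from limma). Ccng1, a p53 target encoding cyclin G1, lay at 12.43, 12.31 and 12.40 in dKO and 12.07, 12.06 and 12.05 in wild-type DP cultures, again without overlap. Its differences were 0.26 ± 0.14 in ethanol and 0.32 ± 0.14 under DP, and neither passed (adjusted p = 0.187 and 0.0955 from limma). Without the deviating arrays Ccng1 passed in both treatments and Mdm4 under DP. The further probe sets of Ccng1 disagreed, with untested differences of -0.19 and 0.20 in ethanol and -0.27 and 0.13 under DP. Those of Mdm4 above the blank level disagreed too, with untested differences of -0.31 and 0.35 in ethanol and 0.11 and -0.28 under DP.

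DNA repair and nucleotide supply genes were higher in dKO cells in 4 of 5 cases in both treatments, and none was lower. Of all genes, 19.5% were higher in ethanol and 18.5% under DP. Since the role groups were drawn up with earlier results of these data known, their shares are descriptions and no test of a theme. Xpc encodes the damage sensor that starts global nucleotide excision repair. Its values were 7.05, 6.85 and 6.96 in dKO and 6.18, 6.13 and 5.99 in wild-type ethanol cultures, and 6.49, 6.81 and 6.67 in dKO and 5.87, 5.81 and 5.96 in wild-type DP cultures. The differences of 0.85 ± 0.11 and 0.78 ± 0.11 left the genotypes without overlap. Ddb2, which encodes the subunit that recognises ultraviolet damage, had 5.33, 5.52 and 5.57 in dKO and 4.80, 4.47 and 4.62 in wild-type ethanol cultures. Under DP it had 5.36, 5.52 and 5.70 in dKO and 4.41, 4.76 and 4.33 in wild-type cultures. It was higher by 0.85 ± 0.14 in ethanol and 1.03 ± 0.14 under DP, with no overlap. Ercc5, the gene of the XPG endonuclease, had 8.09, 8.48 and 8.60 in dKO and 7.94, 7.75 and 7.30 in wild-type ethanol cultures, and 8.57, 8.70 and 8.64 in dKO and 7.97, 7.74 and 7.96 in wild-type DP cultures. It was higher by 0.73 ± 0.16 and 0.75 ± 0.16.

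Rrm2b encodes the p53-inducible ribonucleotide reductase subunit that supplies nucleotides for repair. It had 5.72, 7.19 and 6.82 in dKO and 5.84, 5.92 and 4.51 in wild-type ethanol cultures, where the groups overlapped through the low value of dKO line 1. Under DP it had 7.24, 7.11 and 7.10 in dKO and 5.55, 5.62 and 5.61 in wild-type cultures, with no overlap and a difference of 1.55 ± 0.37 (adjusted p = 0.00514 from limma). The ethanol difference of 1.15 ± 0.37 (adjusted p = 0.0284 from limma) was lost after cyclic loess, in a fit of only the ethanol arrays and without the ethanol array of wild-type line 5 or of dKO line 5 or 6. Polk did not pass in either treatment, with differences of 0.33 ± 0.24 and 0.56 ± 0.24. Its DP difference passed without the deviating arrays, with array weights and in a fit of only the DP arrays.

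**Figure D3:**
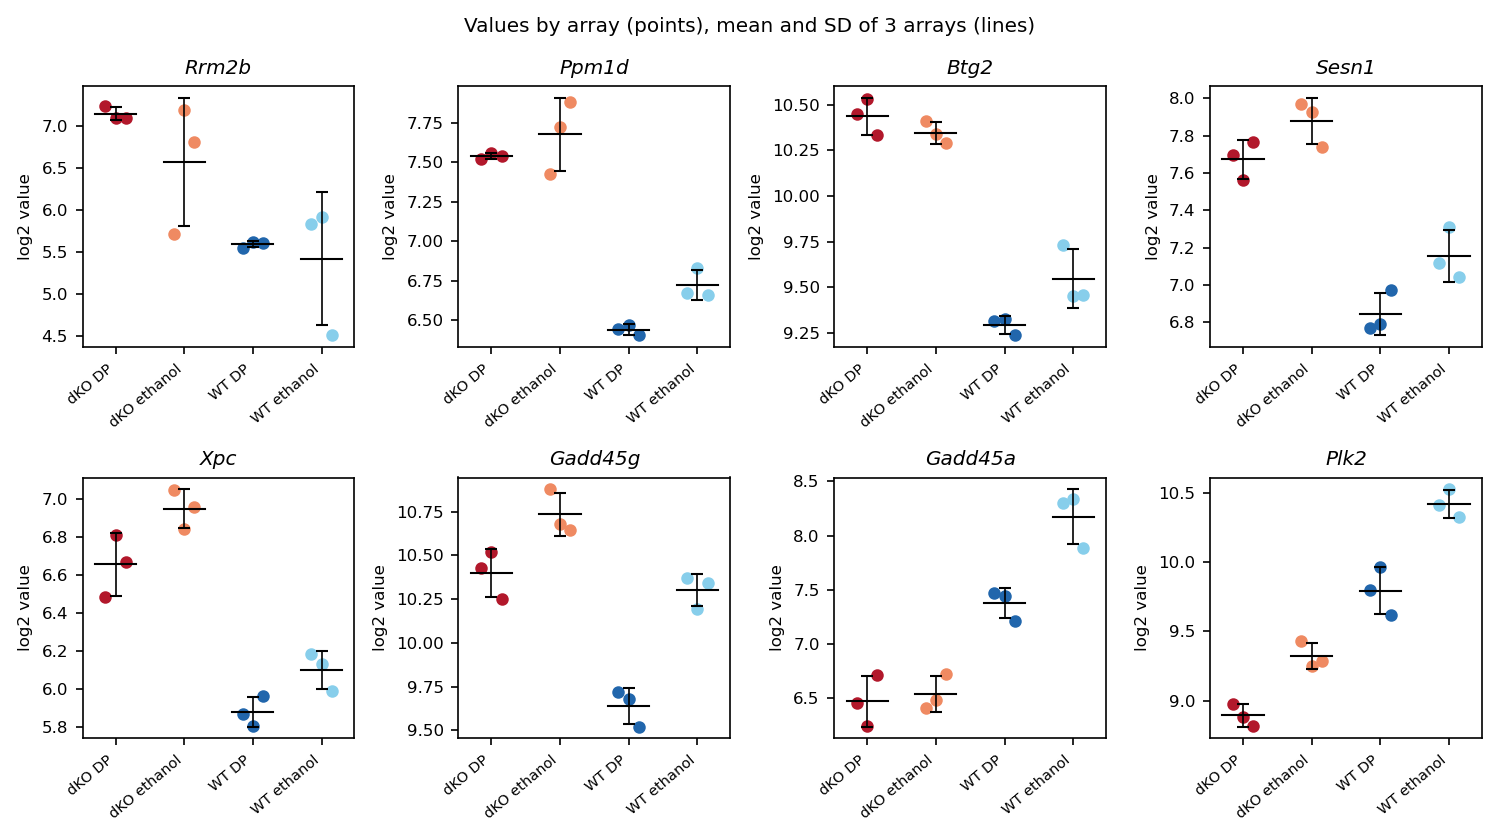
Log2 values (y axis) of 8 genes on each array by group (x axis), with lines for the mean and SD of 3 arrays. Ppm1d, Btg2, Sesn1 and Xpc are higher on every dKO array than on any wild-type array, and Plk2 and Gadd45a are lower on every dKO array.

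Of 12 growth arrest and stress effectors 7 were higher and 3 lower in dKO ethanol cultures, and 8 were higher and 3 lower under DP. Over all genes the higher and lower shares were 19.5% and 14.1% in ethanol and 18.5% and 16.9% under DP. Btg2 encodes an antiproliferative protein that recruits the deadenylase complex to mRNAs. It had 10.41, 10.34 and 10.29 in dKO and 9.73, 9.45 and 9.46 in wild-type ethanol cultures, and 10.45, 10.53 and 10.33 in dKO and 9.32, 9.33 and 9.24 in wild-type DP cultures. The genotypes did not overlap, with differences of 0.80 ± 0.10 (adjusted p = 4.2e-05 from limma) and 1.14 ± 0.10 (adjusted p = 2.14e-06 from limma). Sesn1, whose product restrains mTORC1, had 7.97, 7.93 and 7.74 in dKO and 7.12, 7.31 and 7.04 in wild-type ethanol cultures, and 7.70, 7.56 and 7.76 in dKO and 6.77, 6.79 and 6.97 in wild-type DP cultures. Every dKO value was above every wild-type value, and the differences were 0.72 ± 0.11 and 0.83 ± 0.11. Its further probe sets were higher in dKO cells as well. Tigar encodes a phosphatase that lowers fructose-2,6-bisphosphate and so slows glycolysis. It had 6.76, 6.42 and 6.39 in dKO and 6.02, 5.66 and 5.82 in wild-type ethanol cultures. Under DP it had 6.42, 6.34 and 6.27 in dKO and 5.47, 5.62 and 5.17 in wild-type cultures. It was higher by 0.69 ± 0.14 and 0.92 ± 0.14, although of its dimmer probe sets 1 changed by -0.09 under DP.

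Plk3 and Plk2, stress-responsive polo-like kinase genes, moved in opposite directions. Plk3 had 6.73, 5.83 and 6.25 in dKO and 5.24, 5.49 and 5.54 in wild-type ethanol cultures, and 6.19, 5.62 and 6.38 in dKO and 4.65, 4.99 and 5.03 in wild-type DP cultures. It was higher in dKO cells by 0.85 ± 0.23 and 1.18 ± 0.23. Plk2 had 9.43, 9.25 and 9.28 in dKO and 10.41, 10.52 and 10.32 in wild-type ethanol cultures, and 8.98, 8.89 and 8.82 in dKO and 9.79, 9.96 and 9.62 in wild-type DP cultures. It was lower by 1.10 ± 0.11 in ethanol and 0.90 ± 0.11 under DP (log2 differences of -1.10 ± 0.11 and -0.90 ± 0.11). As the printed promoters show, Plk2 carries the CREB octamer that also stands before Btg2 and Ppm1d, which were higher in dKO cells. Any part of the octamer in these differences was not tested.

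The Gadd45 genes encode small stress sensors that act on MAP kinase signalling, the cell cycle and DNA repair, and they diverged. Gadd45a, the p53 target among them, had 6.41, 6.49 and 6.72 in dKO and 8.30, 8.34 and 7.89 in wild-type ethanol cultures, and 6.46, 6.25 and 6.71 in dKO and 7.47, 7.45 and 7.22 in wild-type DP cultures. Its ethanol difference of -1.63 ± 0.15 was the lowest of the 41. Gadd45b had 10.54, 10.18 and 10.25 in dKO and 9.57, 9.56 and 9.71 in wild-type ethanol cultures and was higher by 0.71 ± 0.10, and by 0.39 ± 0.10 under DP. Gadd45g had 10.43, 10.52 and 10.25 in dKO and 9.72, 9.68 and 9.52 in wild-type DP cultures and was higher by 0.76 ± 0.11, and by 0.43 ± 0.11 in ethanol. None of the 3 overlapped between genotypes in either treatment.

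Trp53inp1, a stress-induced p53 target whose product takes part in autophagy, had 10.29, 10.43 and 10.45 in dKO and 9.41, 9.13 and 9.12 in wild-type DP cultures. These groups did not overlap, with a difference of 1.17 ± 0.34 (adjusted p = 0.0167 from limma) that was lost with the mean of probe sets and when dKO DP line 6 or wild-type DP line 4 or 5 was left out. In ethanol its difference of 0.54 ± 0.34 did not pass, and it passed without the deviating arrays. Zmat3, which encodes an RNA-binding zinc-finger protein, was higher by 0.27 ± 0.10 in ethanol, a call lost in 8 of 15 alternatives, and by 0.35 ± 0.10 under DP, a call lost after cyclic loess. Sfn, the 14-3-3 sigma gene, was lower by 0.54 ± 0.14 in ethanol and 0.39 ± 0.14 under DP. It lay near the blank controls in dKO cells and little above them in wild-type cells, with means of 3.81 in ethanol and 3.67 under DP. The size of its differences is therefore uncertain. Its DP call was lost with the MEF line as a random block, after cyclic loess or median centring, and without any 1 of the 6 DP arrays. Phlda3, whose product restrains AKT, did not pass in either treatment, but passed as lower in both without the deviating arrays, after cyclic loess and with array weights.

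Among the 11 measured members of the BCL2 family 1 was higher and 2 lower in dKO cells in each treatment. The share that passed was thus 27.3% in each, beside 33.6% of all genes in ethanol and 35.4% under DP. Bok, which encodes an effector protein, had 7.50, 6.92 and 6.87 in dKO and 7.74, 7.66 and 7.97 in wild-type ethanol cultures, and 7.01, 6.94 and 6.69 in dKO and 7.67, 7.59 and 7.60 in wild-type DP cultures. It was lower without overlap, by 0.70 ± 0.16 and 0.74 ± 0.16. Bmf, a BH3-only gene, had 3.43, 3.65 and 3.72 in dKO and 4.21, 4.26 and 4.42 in wild-type DP cultures and was lower by 0.70 ± 0.12, and by 0.59 ± 0.12 in ethanol. Its dKO ethanol mean lay near the blank controls, and the ethanol call was lost with the mean of probe sets. Bid encodes the BH3-only protein that links death receptors to mitochondria. It had 7.80, 7.60 and 7.75 in dKO and 7.49, 7.11 and 7.03 in wild-type DP cultures and was higher by 0.50 ± 0.13, a call lost after cyclic loess and without wild-type DP line 5, while its ethanol difference of 0.17 ± 0.13 did not pass. Bik, a further BH3-only gene, was higher by 0.33 ± 0.12 in ethanol, a call lost in 8 of 14 alternatives, and did not pass under DP (0.13 ± 0.12).

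The other 7 measured BCL2 family genes passed in neither treatment. Bbc3, which encodes the p53-induced BH3-only protein PUMA, had 7.71, 7.15 and 7.46 in dKO and 7.31, 7.35 and 7.77 in wild-type ethanol cultures. Pmaip1, which encodes NOXA, had 7.97, 9.27 and 8.59 in dKO and 9.37, 9.38 and 8.24 in wild-type ethanol cultures, a difference of -0.39 ± 0.34. Both overlapped between genotypes, the lowest Pmaip1 values being those of the deviating arrays. The pro-survival gene Bcl2 had 4.75, 5.63 and 5.25 in dKO and 5.60, 5.44 and 4.78 in wild-type ethanol cultures. Mcl1, also pro-survival, had 9.76, 9.79 and 9.78 in dKO and 9.80, 9.82 and 9.67 in wild-type ethanol cultures. The groups of both genes overlapped. The probe sets of Mcl1 disagreed, since another of nearly equal brightness was higher in dKO cells by 0.67 in ethanol and 0.67 under DP and the dimmest differed by -0.26 and -0.24, with no test of single probe sets. Bcl2l1, which encodes BCL-XL, had 7.58, 7.62 and 7.77 in dKO and 8.07, 7.87 and 8.10 in wild-type DP cultures, with no overlap. Its differences of -0.32 ± 0.14 in ethanol and -0.36 ± 0.14 under DP did not pass (adjusted p = 0.0956 and 0.0583 from limma), although both passed after cyclic loess and the DP difference also without the deviating arrays. Bcl2l11, which encodes the BH3-only protein BIM, had 8.34, 8.73 and 8.45 in dKO and 8.24, 8.57 and 8.61 in wild-type ethanol cultures. It and the effector gene Bak1 overlapped between genotypes there. Under DP, Bcl2l11 passed with the mean of its probe sets, of which the dimmest pair had untested differences of -0.96 and -0.84, and Bak1 passed after cyclic loess and with array weights.

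Of 9 death receptor, caspase and other death effector genes 2 were higher and 2 lower in dKO ethanol cultures (44.4%, beside 33.6% of all genes). Perp, a p53 target encoding a membrane protein of desmosomes, had 5.31, 4.90 and 5.50 in dKO and 4.03, 3.31 and 3.47 in wild-type ethanol cultures, and 5.56, 4.67 and 5.16 in dKO and 4.33, 3.79 and 3.85 in wild-type DP cultures. It was higher by 1.63 ± 0.25 and 1.14 ± 0.25, with no overlap. In wild-type ethanol cultures line 4 lay below the blank level of its array (3.54) and line 5 close to it (3.44), so the size of the ethanol difference is uncertain. Ei24, which encodes a p53-induced protein of the endoplasmic reticulum, was higher by 0.47 ± 0.10 and 0.46 ± 0.10. Aen encodes a p53-induced nuclease of apoptosis. It had 8.97, 8.68 and 8.78 in dKO and 9.27, 9.37 and 9.46 in wild-type ethanol cultures, and 8.52, 8.51 and 8.47 in dKO and 9.07, 9.02 and 8.93 in wild-type DP cultures. It was lower by 0.56 ± 0.10 and 0.51 ± 0.10, again with no overlap. Eda2r, a receptor gene of the TNF receptor family on the X chromosome, had 7.03, 7.55 and 7.51 in dKO and 8.23, 8.25 and 7.55 in wild-type ethanol cultures. It was lower by 0.65 ± 0.19 in ethanol, a call lost without any 1 of 3 arrays, and did not pass under DP (-0.38 ± 0.19), where it passed without the deviating arrays and after cyclic loess, and the lines also differ in sex. The death receptor gene Fas had 6.69, 6.65 and 6.71 in dKO and 7.31, 7.10 and 6.59 in wild-type ethanol cultures. Its difference of -0.32 ± 0.15 did not pass (adjusted p = 0.128 from limma) and passed without the deviating arrays. Tnfrsf10b, another death receptor gene, and Casp8, Casp9 and Apaf1, which encode initiator caspases and the apoptosome scaffold, did not pass in either treatment. Under DP, Casp8 passed after cyclic loess and Apaf1 with the mean of probe sets.

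**Figure D4:**
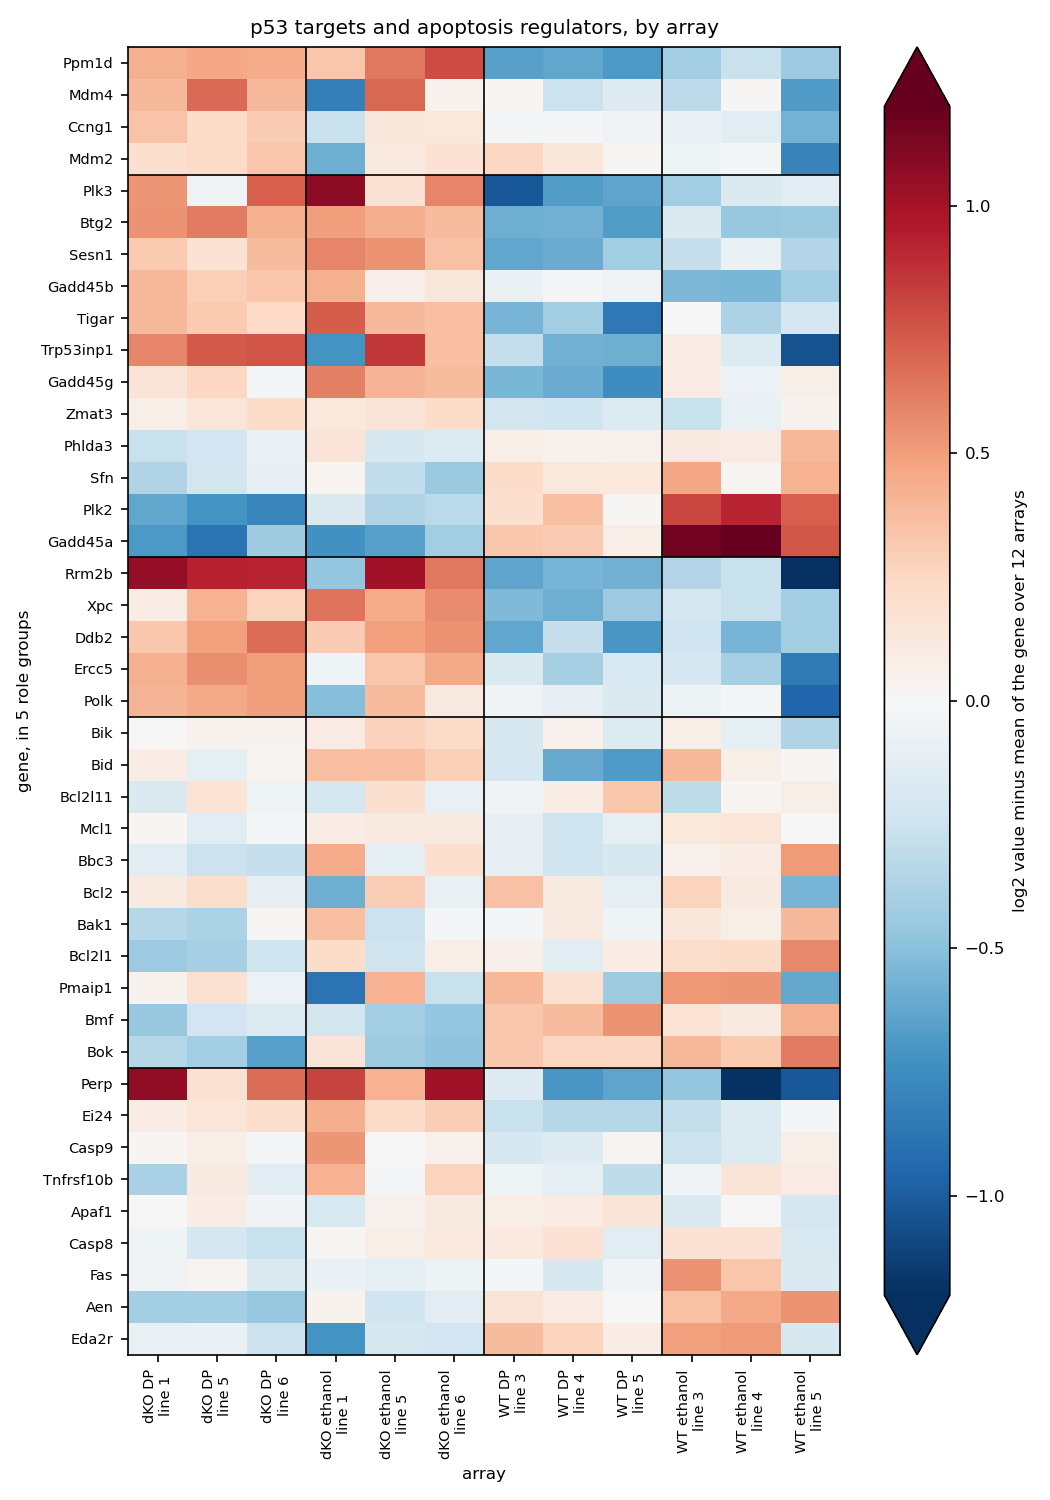
Log2 value minus the gene's mean over 12 arrays (colour) for the 41 genes (rows, in 5 role groups) on each array (columns, by group and MEF line). DNA repair genes are mostly red on dKO and blue on wild-type arrays, and Gadd45a and Plk2 the reverse.

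Genes of the pathway outside this list were read from lists of p53 regulators, other p53 targets and other apoptosis genes. Of 17 p53 regulators 7 were higher and 1 lower in dKO ethanol cultures, and 7 and 2 under DP. These made 47.1% and 52.9%, beside 33.6% and 35.4% of all genes. Sirt1, which encodes a deacetylase of p53, had 7.21, 8.34 and 8.18 in dKO and 6.46, 6.54 and 5.24 in wild-type ethanol cultures and was higher by 1.83 ± 0.35 in ethanol and 2.39 ± 0.35 under DP. Cdkn2a, the locus of p16INK4a and of the MDM2 inhibitor p19ARF, was lower by 1.47 ± 0.28 and 1.13 ± 0.28. Ppp1r13b and Trp53bp2, which encode the p53-binding proteins ASPP1 and ASPP2, were higher by 0.68 ± 0.12 and 0.62 ± 0.09 in ethanol. Pias1 had 8.47, 8.63 and 8.69 in dKO and 8.08, 7.84 and 8.05 in wild-type DP cultures (adjusted p = 0.00324 from limma). Of 32 other p53 targets 9 were higher and 8 lower in each treatment (53.1%), with medians of -0.04 in ethanol and 0.05 under DP. Cdkn1a, which encodes the cell-cycle inhibitor p21, had 12.11, 12.08 and 12.18 in dKO and 11.44, 11.53 and 11.69 in wild-type ethanol cultures. It was higher by 0.57 ± 0.09, and by 0.33 ± 0.09 under DP. Hexim1, whose product inhibits the elongation factor P-TEFb, was higher by 1.91 ± 0.09 and 2.06 ± 0.09. The phosphatase genes Ptprv and Ptp4a3 were lower by 2.82 ± 0.22 and 1.22 ± 0.10 in ethanol, and the LIM-domain gene Crip2 by 0.95 ± 0.18. Of 28 other apoptosis genes 6 were higher and 3 lower in ethanol, and 6 and 8 under DP. In ethanol that is 32.1%, near the 33.6% of all genes, and under DP 50%, beside 35.4% of all genes. Casp12, a caspase gene of the endoplasmic reticulum, was lower by 2.32 ± 0.37 and 1.71 ± 0.37, while Birc2, which encodes the inhibitor of apoptosis cIAP1, was higher by 1.11 ± 0.18 and 0.92 ± 0.18. Bcl2l2, the BCL-W gene, and Parp1, which encodes a DNA break sensor, were higher by 0.75 ± 0.10 and 0.73 ± 0.11 in ethanol. Xiap had 9.56, 9.59 and 9.53 in dKO and 8.58, 8.29 and 8.33 in wild-type DP cultures (adjusted p = 0.0145 from limma). Birc5 was lower, at 7.91, 7.77 and 7.68 in dKO and 8.53, 8.52 and 8.57 in wild-type DP cultures (adjusted p = 0.00188 from limma).

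The next comparison asked how the genes respond to DP in wild-type cells. Gadd45a, Gadd45g, Bid and Plk2 fell and Gadd45b rose, and the other 36 did not pass. These 5 make 12.2% of the 41, while 4.73% of all genes passed, 3.05% higher and 1.67% lower. The median change of the 41 was -0.14, beside -0.03 over all genes. In all 3 wild-type lines 17 of the 41 were lower with DP and 7 higher, against 23.6% and 15.8% of all genes. The groups did not overlap for 16 lower and 4 higher members, against 13.6% and 8.97% of all genes. Without the deviating arrays 7 genes passed, 6 lower and 1 higher. Leaving out line 4 or line 5 of the wild-type DP group gave 3, each time ending the calls of Bid and Gadd45b, and array weights gave 9. The share of all genes that passed in these settings is not given here, so the changed counts cannot be read as particular to the 41.

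Gadd45a had 7.47, 7.45 and 7.22 in wild-type DP and 8.30, 8.34 and 7.89 in wild-type ethanol cultures. It fell by 0.80 ± 0.15 (adjusted p = 0.00705 from limma), lower in 3 of 3 lines. Gadd45g had 9.72, 9.68 and 9.52 in DP and 10.37, 10.20 and 10.34 in ethanol cultures and fell by 0.66 ± 0.11 (adjusted p = 0.00217 from limma). Gadd45b had 10.04, 10.09 and 10.07 in DP and 9.57, 9.56 and 9.71 in ethanol cultures and rose by 0.45 ± 0.10 (adjusted p = 0.0219 from limma). The 3 related genes thus did not share a direction, and none overlapped between treatments. The Gadd45b call was lost with median centring and without 5 of the 6 wild-type arrays in turn, the ethanol array of line 5 being the exception.

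Plk2 had 9.79, 9.96 and 9.62 in wild-type DP and 10.41, 10.52 and 10.32 in wild-type ethanol cultures and fell by 0.62 ± 0.11 (adjusted p = 0.00338 from limma). Bid had 7.49, 7.11 and 7.03 in DP and 8.10, 7.78 and 7.73 in ethanol cultures and fell by 0.66 ± 0.13 (adjusted p = 0.0111 from limma), a call also lost in a fit of only the wild-type arrays. Both genes were lower with DP in 3 of 3 lines. Plk3 had 4.65, 4.99 and 5.03 in DP and 5.24, 5.49 and 5.54 in ethanol cultures. Its change of -0.54 ± 0.23 did not pass (adjusted p = 0.273 from limma, and 0.0483 when the MEF line was a block). Aen changed by -0.36 ± 0.10 (adjusted p = 0.054 from limma) and passed without the deviating arrays. Tigar, Sesn1 and Mcl1 changed by -0.42 ± 0.14, -0.31 ± 0.11 and -0.24 ± 0.09 without passing.

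None of the 4 p53 feedback regulators and none of the 9 death receptor, caspase and other death effector genes passed with DP in wild-type cells. Bid was the only one of 11 BCL2 family genes to pass (9.09%, beside 4.73% of all genes). Mdm2 had 10.05, 9.94 and 9.82 in DP and 9.75, 9.79 and 9.00 in ethanol cultures. These did not overlap, and the change of 0.42 ± 0.22 (adjusted p = 0.407 from limma) came with a low value on the deviating ethanol array of line 5. Ccng1 had 12.07, 12.06 and 12.05 in DP and 12.01, 11.97 and 11.52 in ethanol cultures, a change of 0.23 ± 0.14 with the same array lowest. Bbc3 had 7.16, 7.02 and 7.07 in DP and 7.31, 7.35 and 7.77 in ethanol cultures. Its values did not overlap, but its change of -0.39 ± 0.15 did not pass (adjusted p = 0.212 from limma). Pmaip1 had 9.25, 9.04 and 8.42 in DP and 9.37, 9.38 and 8.24 in ethanol cultures, and these overlapped. Fas had 6.74, 6.57 and 6.73 in DP and 7.31, 7.10 and 6.59 in ethanol cultures, a change of -0.32 ± 0.15 (adjusted p = 0.339 from limma) that passed without the deviating arrays. Bcl2l1 and Bcl2l11 changed by -0.33 ± 0.14 and 0.20 ± 0.15, and neither passed.

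**Figure D5:**
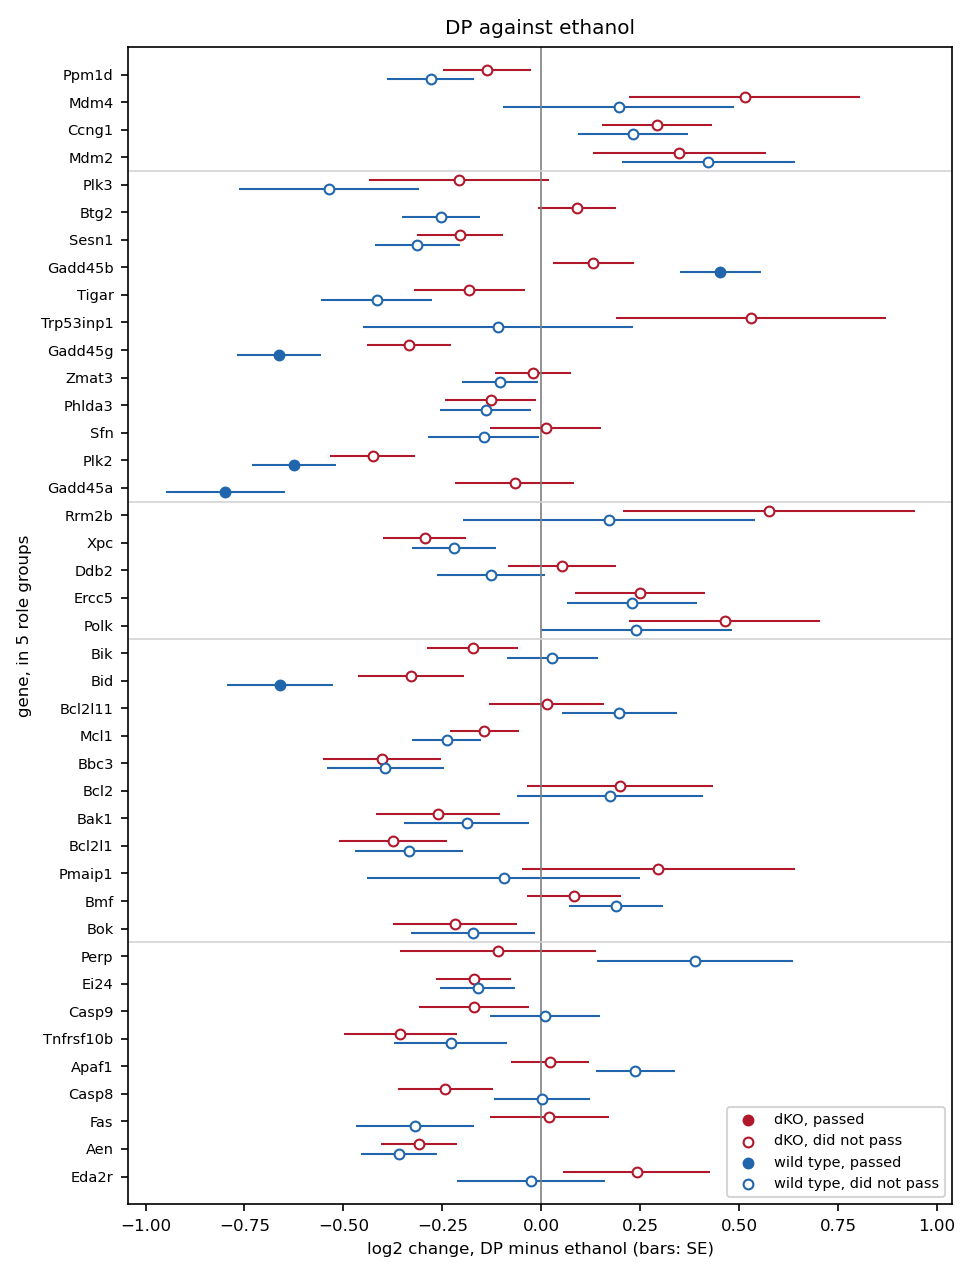
Log2 change with DP (x axis) in dKO and wild-type cells for the 41 genes (y axis, in 5 role groups); bars are SE and filled points passed the test. The only filled points are those of Gadd45a, Gadd45b, Gadd45g, Plk2 and Bid in wild-type cells.

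In dKO cells none of the 41 genes passed limma's test for the DP response, where 1.5% of all genes passed. At an unadjusted p under 0.05 there were 8, all lower, which is 19.5% of the 41 beside 14.1% of all genes. With array weights 7 passed the adjusted test, all lower. The share of all genes that passed with array weights is not given here, so those 7 calls cannot be read as particular to the 41. The median change was -0.11, beside -0.05 over all genes, and the groups did not overlap for 11 lower and 3 higher members, against 14.4% and 6.32% of all genes. Plk2 came nearest, at 8.98, 8.89 and 8.82 in dKO DP and 9.43, 9.25 and 9.28 in dKO ethanol cultures. Its groups did not overlap, and its change was -0.43 ± 0.11 (adjusted p = 0.0781 from limma). Gadd45g had 10.43, 10.52 and 10.25 in dKO DP and 10.88, 10.68 and 10.65 in dKO ethanol cultures, a change of -0.34 ± 0.11 (adjusted p = 0.184 from limma). Gadd45a, low in both dKO groups, had 6.46, 6.25 and 6.71 in DP and 6.41, 6.49 and 6.72 in ethanol cultures, which overlapped, with a change of -0.07 ± 0.15. Gadd45b changed by 0.13 ± 0.10 and Bid by -0.33 ± 0.13. Bbc3, Bcl2l1, Aen, Tnfrsf10b and Xpc, at unadjusted p under 0.05 as well, changed by -0.40 ± 0.15, -0.37 ± 0.14, -0.31 ± 0.10, -0.36 ± 0.14 and -0.29 ± 0.11.

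Some dKO changes rested on the deviating ethanol array of line 1. Rrm2b had 7.24, 7.11 and 7.10 in dKO DP and 5.72, 7.19 and 6.82 in dKO ethanol cultures, so that DP minus ethanol was 1.52, -0.09 and 0.29 in lines 1, 5 and 6. Trp53inp1 gave 1.31, -0.12 and 0.39 in the same lines, and Mdm2 gave 0.78, 0.12 and 0.15. In each of the 3 genes line 1 had the largest difference, and none passed.

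Outside the list, DP raised Ppp1r13l, which encodes the p53 inhibitor iASPP, by 0.68 ± 0.14 in dKO and 0.68 ± 0.14 in wild-type cells. Ccng2, the cyclin G2 gene, rose by 1.44 ± 0.11 in dKO and 2.04 ± 0.11 in wild-type cells. These were the only passing genes of the 3 pathway lists in dKO cells, where 1.5% of all genes passed. In wild-type cells 3 of 17 p53 regulators (17.6%), 2 of 32 other p53 targets (6.25%) and 3 of 28 other apoptosis genes (10.7%) passed, beside 4.73% of all genes. They included Endog, the endonuclease G gene, which rose by 0.79 ± 0.16, Casp6, an executioner caspase gene, which rose by 0.68 ± 0.08, and Rprm, a p53-induced arrest gene, which fell by 0.55 ± 0.13. Chek2 and Daxx changed by 0.41 ± 0.11 and -0.44 ± 0.10 and Bcl2l2 by 0.41 ± 0.10, each losing its call without any 1 of 5 arrays in turn. The calls of Ppp1r13l in each genotype and of Rprm were lost without any 1 of 4 arrays, and that of Endog without 1. Cdkn1a had 11.78, 11.79 and 11.77 in wild-type DP and 11.44, 11.53 and 11.69 in wild-type ethanol cultures, and its change of 0.23 ± 0.09 did not pass (adjusted p = 0.224 from limma).

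The last comparison was between the DP responses of dKO and wild-type cells. None of the 41 genes passed limma's test of that difference, where 0.562% of all genes passed, and none passed under any alternative tried. At an unadjusted p under 0.05 there were 4, which is 9.76% of the 41 beside 5.92% of all genes, namely the 3 Gadd45 genes and Btg2. DP minus ethanol for Gadd45a was 0.04, -0.23 and -0.01 in dKO lines 1, 5 and 6 and -0.83, -0.89 and -0.67 in wild-type lines 3, 4 and 5. The difference was 0.73 ± 0.21 (adjusted p = 0.348 from limma). Btg2 gave 0.04, 0.19 and 0.04 in the dKO lines and -0.42, -0.12 and -0.22 in the wild-type lines, higher with DP in every dKO line and lower in every wild-type line. It was the only one of the 41 with this opposition, and its difference was 0.34 ± 0.14 (adjusted p = 0.725 from limma). Gadd45b and Gadd45g differed by -0.32 ± 0.14 and 0.33 ± 0.15 (adjusted p = 0.815 and 0.839 from limma). Plk2 gave -0.45, -0.36 and -0.47 in the dKO lines and -0.61, -0.56 and -0.70 in the wild-type lines. The responses of Plk2 and Bid differed by 0.20 ± 0.15 and 0.33 ± 0.19 (adjusted p = 1 and 0.937 from limma), so their passing in wild-type cells alone does not show a difference between the genotypes.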

How the data were processed

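Total RNA was labelled with an Affymetrix 3′ IVT kit, and the deposited log2 values are the authors' RMA summaries. The submitters' processing notes name Affymetrix Expression Console 1.1. Of 45141 probe sets, 104 were controls, 28898 named 1 gene symbol, 551 several and 15588 none. One-symbol probe sets gave 17097 genes, the probe set of highest mean standing for each gene. RMA compresses differences near background, and no scanner files were used here.

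All 12 arrays were fitted in limma 3.58.1 (R 4.3.3) with 1 mean per group, and p-values were adjusted by Benjamini-Hochberg over all genes. The fit was tested on simulated data. The alternatives tried were a block for the MEF line, an intensity trend, array weights, cyclic loess, median centring, a filter on the dimmest 40% of genes, the mean of probe sets, only the arrays compared, and leaving out arrays. Members, roles and gene lists were chosen with earlier results of these data known. Per-array values are given for members that passed in any of 5 contrasts, up to 14 each by size, and for a fixed set of regulators that includes Cdkn1a. Up to 4 passing genes per contrast by size are named from each pathway list. Other genes named were chosen after their values were seen.

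The labels give each numbered line both treatments, which pairs the arrays. Deviations of paired arrays from their group means had correlations of 0.04, 0.32 and 0.36 for dKO lines 1, 5 and 6, and of 0.42, 0.06 and 0.33 for wild-type lines 3, 4 and 5 (8917 genes whose mean reached 5 log2). The main fit leaves this pairing out. Its p-values rest on the spread of arrays within groups, pooled over the 4 groups, and not on the spread of the DP effect between lines. Nothing says whether lines came from separate litters, so the p-values speak for these lines only.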

Additional observations from a re-analysis of the deposited data

How the results depend on the processing

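The number of genes that passed for the DP response moved by over 1.5 times with array weights, to 7 in dKO and 9 in wild-type cells, and the cause was not tested. The share of all genes that passed with these weights is not given here. Leaving out 1 array at a time gave 0 to 0 in dKO cells and 3 to 6 in wild-type cells. The genotype counts ranged from 19 to 25 in ethanol and from 19 to 21 under DP when 1 array was left out, and from 18 to 28 and from 21 to 30 under the other alternatives. The difference between the responses gave 0 throughout. With the MEF line as a replicate block, 0 genes passed for DP in dKO and 6 in wild-type cells, Plk3 being added, and 22 and 21 passed for genotype in ethanol and under DP, Sfn being lost. The block changed no other call. Over all genes, calls for DP in dKO cells were 67.2% higher, 82.3% after cyclic loess and 80.6% after median centring. Of 2169 recomputed values of 142 named changes, 2020 kept direction and call, 92 lost and 50 gained the call, and 7 changed sign, all in changes that had not passed. These were Gadd45a with DP in dKO cells (0.0284 after cyclic loess, and -0.188 to 0.0434 leaving out 1 array), Bid between genotypes in ethanol (-0.0298 after cyclic loess), Trp53inp1 with DP in wild-type cells (-0.443 to 0.12 leaving out 1 array), and Rrm2b in the difference of responses (-0.15 with the mean of probe sets, -0.0250 to 0.858 leaving out 1 array). Differences of genes near the blank controls (Bmf in dKO ethanol cultures and Sfn in dKO cells) may be compressed, and their size is uncertain.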
